A study of Mus musculus with 5 samples.

Results

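The 10 genes described here encode the AMPA receptor subunits GluA1 to GluA4 (Gria1, Gria2, Gria3 and Gria4) and the NMDA receptor subunits GluN1 (Grin1), GluN2A to GluN2D (Grin2a, Grin2b, Grin2c and Grin2d) and GluN3A (Grin3a). They were taken by name from the RefSeq annotation of the mouse genome build GRCm38, where all 10 of 10 were found among 21887 protein-coding genes on the assembled chromosomes. For each gene and library, the summits of ATRX ChIP-seq peaks were counted within 1 kb and 3 kb of either end of the gene and along the gene body, and the gene body count was divided by the number that the library's own mean summit density predicts for that length (scaled density). No measured value enters the rule that lists the genes, but they were chosen with earlier results of these data known.

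ATRX is a chromatin remodeller of the SWI/SNF family that deposits the histone variant H3.3 together with DAXX at heterochromatin and repeats. It was profiled in primary neurons of C57BL6/J mouse embryos taken at E15.5-17.5 and infected with lentivirus on day 5 in vitro (DIV5). There was 1 library per group. The control expressed mCherry and was taken at DIV14, neurons with TBC1D3 and neurons with MICAL1-M1 were taken at the same age, and the young group expressed mCherry and was taken at DIV7. TBC1D3 is a hominoid-specific gene absent from mice, MICAL1 is an actin-oxidising enzyme, and mCherry is a fluorescent protein; the sources used here do not give the promoter of the constructs, the number of embryos pooled or the nature of the M1 form, and the peak names in the MICAL1-M1 list carry the prefix M2. With 1 library per group no difference between groups has a replicate error or a test, and all intervals are exact 95% intervals that cover counting error only.

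The lists held 96670 peaks (control), 199059 (TBC1D3), 141387 (MICAL1-M1) and 213982 (DIV7), and their depths differed. The genome background recovered from the peaks was 3.56, 1.22, 2.61 and 1.28 fragments, and the median pileup at a summit was 9, 4, 7 and 4 fragments, in the same order. A peak of the TBC1D3 or DIV7 list therefore often rests on 3 or 4 fragments, and 98.1% and 97.6% of their peaks have a q of 1. Gene ends of neuron markers held a summit (1 kb window) in 6, 2, 6 and 3 of 8 cases, astrocyte markers in 1, 2, 1 and 3 of 6, oligodendrocyte markers in 3, 3, 2 and 2 of 6 and microglia markers in 0, 2, 0 and 2 of 6, against 42.3%, 33.4%, 38.7% and 33.2% of all protein-coding genes. ATRX binding does not measure expression, so these counts do not show which cells were present, and binding in more cells cannot be told apart from more binding per cell.

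AMPA receptors carry most fast excitatory transmission in the brain. The GluA2 subunit, through RNA editing of its pore, makes them nearly impermeable to calcium. NMDA receptors need GluN1 together with GluN2 or GluN3 subunits, admit calcium and serve as coincidence detectors for synaptic plasticity. In the maturing forebrain GluN2B and GluN3A are known as early subunits and GluN2A as one that gains weight later, while GluN2C is best known from the cerebellum and GluN2D from the brainstem and interneurons.

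Promoter sequences from RefSeq (GRCm38.p6, from 250 bases before to 50 bases after the start of transcription) matched 5 of the 10 genes: Gria2, Gria4, Grin1, Grin2c and Grin2d, all on the minus strand. The first 3 below were each overlapped by a control peak, and Grin2c is shown beside them as a promoter rich in G and C that no control peak overlapped. Each is written 5′ to 3′ on the gene's strand, with CG dinucleotides in capitals.
Gria2, chr3:80802786-80803085: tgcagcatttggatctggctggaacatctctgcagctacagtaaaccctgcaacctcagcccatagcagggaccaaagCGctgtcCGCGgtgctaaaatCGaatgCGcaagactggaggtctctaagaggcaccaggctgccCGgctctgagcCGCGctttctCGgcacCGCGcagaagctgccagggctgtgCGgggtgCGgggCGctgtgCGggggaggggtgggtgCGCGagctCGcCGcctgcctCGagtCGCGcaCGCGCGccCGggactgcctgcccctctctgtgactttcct
Grin1, chr2:25319138-25319437: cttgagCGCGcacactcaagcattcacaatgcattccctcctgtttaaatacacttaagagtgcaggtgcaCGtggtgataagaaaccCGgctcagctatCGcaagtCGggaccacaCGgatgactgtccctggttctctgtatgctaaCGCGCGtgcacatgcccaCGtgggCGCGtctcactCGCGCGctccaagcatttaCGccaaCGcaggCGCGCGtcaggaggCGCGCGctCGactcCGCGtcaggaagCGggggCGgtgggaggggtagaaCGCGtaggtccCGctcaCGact
Gria4, chr9:4796185-4796484: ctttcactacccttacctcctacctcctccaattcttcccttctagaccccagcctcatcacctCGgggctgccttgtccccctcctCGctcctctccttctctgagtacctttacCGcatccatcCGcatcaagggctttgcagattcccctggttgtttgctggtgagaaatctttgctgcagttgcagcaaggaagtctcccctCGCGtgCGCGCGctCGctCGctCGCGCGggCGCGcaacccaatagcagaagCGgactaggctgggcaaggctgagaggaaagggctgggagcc
Grin2c, chr11:115267194-115267493: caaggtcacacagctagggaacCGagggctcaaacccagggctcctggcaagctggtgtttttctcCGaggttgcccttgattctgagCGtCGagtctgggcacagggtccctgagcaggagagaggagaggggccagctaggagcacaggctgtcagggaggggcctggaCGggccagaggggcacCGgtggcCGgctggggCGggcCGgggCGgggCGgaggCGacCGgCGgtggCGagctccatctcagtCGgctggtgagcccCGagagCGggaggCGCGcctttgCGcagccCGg
The CG dinucleotide occurred 33 times in the Grin1 promoter, 26 times in that of Gria2, 22 times in that of Grin2c, 17 times in that of Gria4 and 12 times in that of Grin2d, against a median of 7 over 32851 RefSeq promoters of 300 bases. The number of CG dinucleotides thus did not order the 5 promoters by control peaks, since Grin2c lay above Gria4. The hexamer GGGCGG, the core of Sp1 sites, was searched on both strands; it occurred 3 times in the Grin2c promoter, 1 time in that of Grin1 and not in those of Gria2, Gria4 and Grin2d, and 35.7% of all promoters hold it.

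At the gene ends, the control list placed an ATRX summit in the 1 kb window of 7 of the 10 genes, against 42.3% of all protein-coding genes and 59.5% of the 2429 protein-coding genes of at least 100 kb. The genes were Gria1, Gria2, Gria4, Grin1, Grin2a, Grin2b and Grin3a. Of the 7 receptor genes longer than 100 kb, 6 were occupied, and Gria3 was not; the counts were 4 with TBC1D3 (46.4% of long genes), 5 with MICAL1-M1 (58.2%) and 5 at DIV7 (45.7%). With TBC1D3 5 of the 10 were occupied (33.4% of all genes), with MICAL1-M1 6 (38.7%) and at DIV7 6 (33.2%). Within 3 kb the counts were 8 of 10 in the control (53% of all genes), 7 with TBC1D3 (57.7%), 8 with MICAL1-M1 (53.2%) and 9 at DIV7 (59.3%). Among the long receptor genes they were 6 of 7 in the control (76.5% of long genes), 4 with TBC1D3 (74%), 6 with MICAL1-M1 (78.1%) and 7 at DIV7 (75.7%). Occupied in the control but not with TBC1D3 were Gria2, Gria4 and Grin1, 3 of 10 against 24.4% of all genes; with MICAL1-M1 this held for Gria2 (15.2% of all genes) and at DIV7 for Grin3a (24.7%). Occupied with TBC1D3 and not in the control was Grin2c, 1 of 10 against 15.6% of all genes; with MICAL1-M1 and at DIV7 there was none, against 11.6% and 15.7%. At a q of at most 0.05 the control had 2 of 10, Gria2 and Grin2b (8.47% of all genes), and the other lists had 0 of 10, with shares of all genes of 0.146% (TBC1D3), 1.33% (MICAL1-M1) and 0.228% (DIV7).

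**Figure D1:**
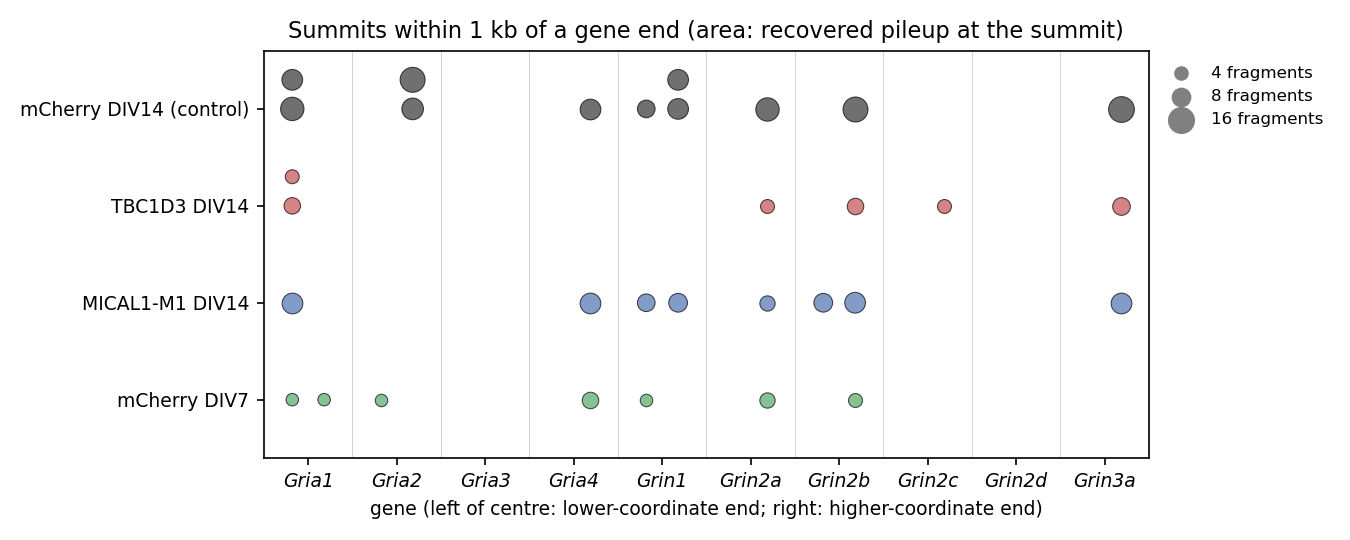
Summits within 1 kb of a gene end for each receptor gene (horizontal axis) and library (vertical axis); left and right of each gene's centre stand for its lower and higher coordinate end, the area of a point for the recovered pileup in fragments, and a second summit at the same end is drawn above the first. Gria1, Grin2a and Grin2b have a point at the same end in all 4 libraries, and Gria3 and Grin2d have none.

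At 3 of the 10 genes the same end was occupied in all 4 libraries, compared with 4.23% of all protein-coding genes; among the 7 long receptor genes the count was 3, compared with 10.3% of long genes. These were the lower-coordinate end of Gria1 and the higher-coordinate ends of Grin2a and Grin2b. At Gria1 the control peak on chromosome 11 from 57011387 to 57012220 (1.93-fold, 14 fragments at the summit) overlapped a peak of TBC1D3 by 310 bp, of MICAL1-M1 by 506 bp and of DIV7 by 328 bp. At Grin2a the control peak on chromosome 16 from 9994953 to 9995726 (2.69-fold, 14 fragments) overlapped those of TBC1D3 by 563 bp, of DIV7 by 245 bp and of MICAL1-M1 by 7 bp. These 2 genes were the receptor genes with a control gene-end peak that each other list overlapped, which held for 3.46% of all protein-coding genes. None of the peaks at these ends of Gria1 and Grin2a reached a q of at most 0.05.

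At Grin2b, which encodes the GluN2 subunit dominant in young forebrain neurons, the control peak on chromosome 6 from 136173376 to 136174337 had 3.72-fold enrichment, 16 fragments at the summit and a q of 0.00701. It covered the higher-coordinate end of the gene, 136173615. The MICAL1-M1 peak there, 1559 bp wide and 3.32-fold enriched with 11 fragments, contained it whole (962 bp shared). The DIV7 peak shared 143 bp with it at 5 fragments, and the TBC1D3 peak lay apart from it, from 136172420 to 136172832, at 3.60-fold and 7 fragments. Their q values were 0.325 (MICAL1-M1), 1 (DIV7) and 0.457 (TBC1D3). An end of the annotated gene Gm26653 lies within 1 kb of all 4 summits, so these peaks cannot be assigned to Grin2b alone.

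At Gria2 the promoter was overlapped by a control peak on chromosome 3 from 80802767 to 80803708, with 3.60-fold enrichment, 16 fragments at the summit and a q of 0.00861. Its summit lay 461 bp before the start of transcription of the promoter printed above. A MICAL1-M1 peak, 1498 bp wide, contained this control peak whole (942 bp shared). A second control summit lay 102 bp from the annotated gene end at 80804227 (1.93-fold, 12 fragments, q of 1). That MICAL1-M1 peak also overlapped the promoter, with its summit 295 bp inside the gene (2.50-fold, 10 fragments), which is 1687 bp from the annotated gene end and so counts in the 3 kb window only. TBC1D3 had no summit within 3 kb of either end of Gria2. The DIV7 list had 1 summit, of 4 fragments, at the opposite end of the gene.

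Grin1, the obligatory NMDA receptor subunit, had 3 control summits at its ends. The one 214 bp inside the gene (2.63-fold, 11 fragments) belonged to a peak over the promoter printed above, and that peak shared 164 bp with a MICAL1-M1 peak of 9 fragments. The summits at the lower-coordinate end of Grin1 in the control, MICAL1-M1 and DIV7 lists also lay within 1 kb of an end of Lrrc26 and of the antisense transcript Grin1os. TBC1D3 had none within 1 kb of Grin1.

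Gria4, the AMPA receptor subunit with a prominent role in interneurons, was occupied at its start in 3 libraries: by 11 fragments in the control, 11 with MICAL1-M1 and 7 at DIV7, and not with TBC1D3. The control peak from 4795281 to 4796477 lay whole within the DIV7 peak (1197 bp shared). An end of Gm46100 lies within 1 kb of these summits. Grin3a was occupied at its higher-coordinate end in the control (17 fragments), with TBC1D3 (8 fragments) and with MICAL1-M1 (11 fragments), and not at DIV7. The largest pileup among the 11 control summits at receptor gene ends thus went with only 2.25-fold enrichment.

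Gria3, Grin2c and Grin2d were bare at their ends in the control. Gria3 had no summit within 1 kb in any list and 1 within 3 kb, at DIV7. Grin2c had 1 summit within 1 kb, with TBC1D3, of 5 fragments and also near an end of the neighbouring gene Fdxr. Grin2d had none within 1 kb in any list; its 2 control summits within 3 kb lay near an end of Kdelr1. At the Grin2d promoter the DIV7 list had 1 peak of 5 fragments, inside the gene and more than 1 kb from its annotated ends. In all, 27% of protein-coding genes had no gene-end summit in any list.

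Along the gene bodies, Gria2 and Grin2b stood far above the other receptor genes in the control; they were singled out after their values were seen. Gria2 held 33 control summits over 123 kb, where 4.46 were expected, a scaled density of 7.40 (5.10 to 10.4). The counts were 14 with TBC1D3 (1.53, 0.835 to 2.56), 25 with MICAL1-M1 (3.83, 2.48 to 5.66) and 9 at DIV7 (0.914, 0.418 to 1.73). The control and MICAL1-M1 lists were thus the dense ones at Gria2. They are the shorter lists and have the higher backgrounds (3.56 and 2.61 fragments, against 1.22 with TBC1D3 and 1.28 at DIV7). Grin2b held 64 control summits over 460 kb, where 16.7 were expected, a scaled density of 3.83 (2.95 to 4.89). Its other values were 57 summits with TBC1D3 (1.66, 1.26 to 2.15), 64 with MICAL1-M1 (2.62, 2.02 to 3.34) and 48 at DIV7 (1.299, 0.958 to 1.72). At both genes the control was highest and MICAL1-M1 next, with counting intervals of their ratios to the other libraries that left out 1, while TBC1D3 and DIV7 could not be ordered (TBC1D3 over DIV7 1.67, 0.674 to 4.38, at Gria2 and 1.28, 0.854 to 1.91, at Grin2b).

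**Figure D2:**
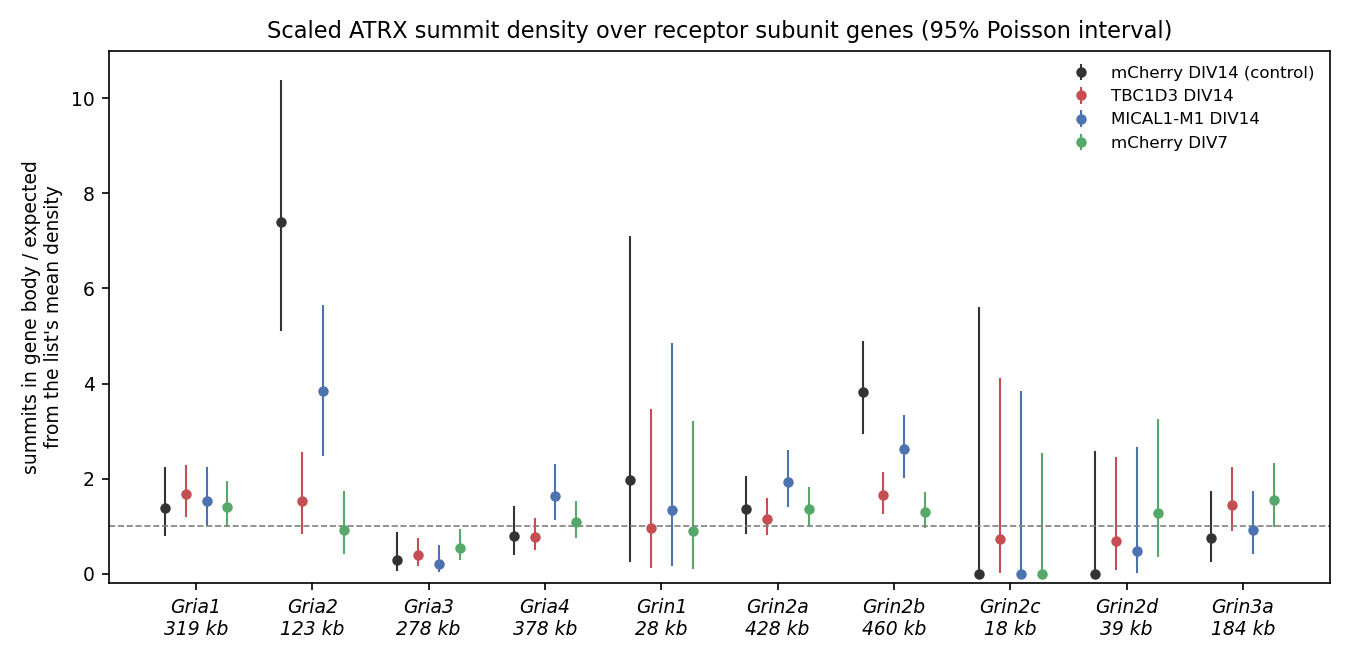
Scaled summit density of the 10 receptor genes (horizontal axis, with gene length) in the 4 libraries (colours); points are summits in the gene body over the number expected from the list's mean density, bars are 95% Poisson intervals and the dashed line marks 1. Gria2 at 7.40 and Grin2b at 3.83 in the control lie above the other genes, whose control values run from 0 to 1.97.

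Among the 2429 protein-coding genes of at least 100 kb, Gria2 ranked 3rd by scaled density in the control, after Zeb2 and Zfp608, and Grin2b ranked 94th. A scaled density of 3 or more was found in 10.5% of these genes in the control, 0.576% with TBC1D3, 4.61% with MICAL1-M1 and 0.535% at DIV7; of the 7 long receptor genes, 2, 0, 1 and 0 reached it. Gria2 ranked 22nd with MICAL1-M1, 420th with TBC1D3 and 1548th at DIV7, and Grin2b 211th, 282nd and 666th. The spread over long genes was wider in the control (95th percentile 3.68) and with MICAL1-M1 (2.95) than with TBC1D3 (1.93) or at DIV7 (1.85). The high values of these genes therefore stood in the lists in which long genes in general spread most.

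**Figure D3:**
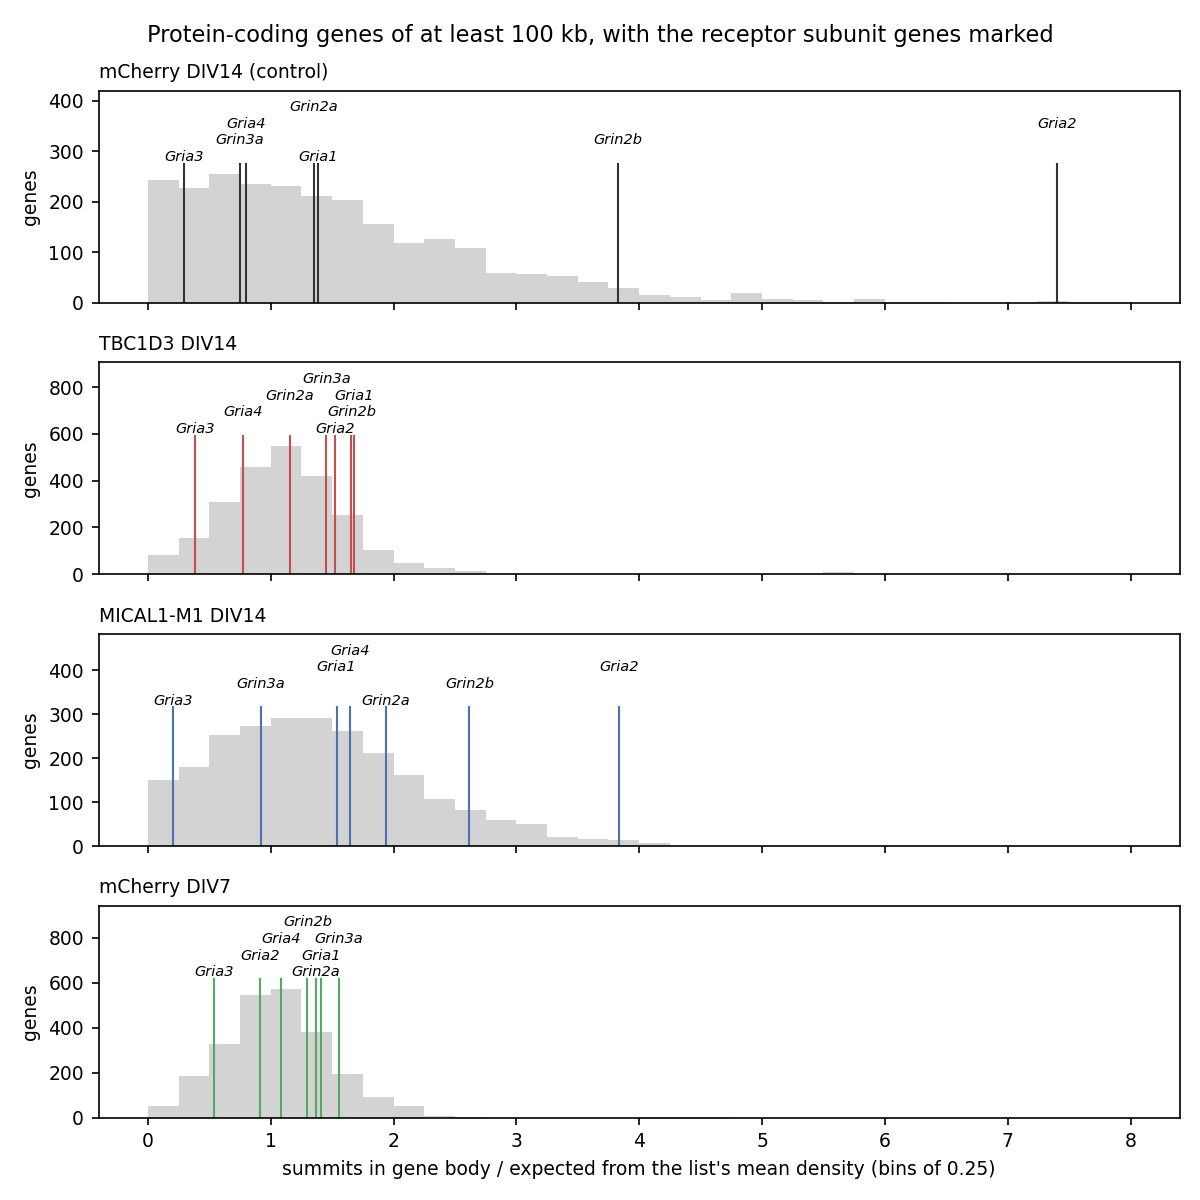
Number of protein-coding genes of at least 100 kb (vertical axis) by scaled summit density in bins of 0.25 (horizontal axis), 1 panel per library, with the 7 long receptor genes marked by lines. In the control Gria2 (7.40) lies at the far right of the distribution, and at DIV7 all 7 lie between 0.538 and 1.55.

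The summits of Gria2 were spread over the gene. With the gene cut into 10 equal segments, the control counts ran from 0 to 7, with 7 in the segment at the higher-coordinate end, where transcription starts, and 12 lay in the 5 segments of lower coordinate against 21 in the others. The largest stretch of the gene without a control summit was 15.96 kb, compared with 24.5 kb for TBC1D3, 19.3 kb for MICAL1-M1 and 36.8 kb for DIV7. Control peaks covered 16.5% of the gene, against 4.30% with TBC1D3, 12.2% with MICAL1-M1 and 2.23% at DIV7. Besides the promoter peak, 2 control peaks inside Gria2 reached a q of at most 0.05: one 1824 bp wide from 80800604 to 80802427 (3.81-fold, 17 fragments) and one from 80740697 to 80741263 (3.72-fold, 16 fragments). The density went on beyond the far end of the gene: the 100 kb below Gria2 held 16 control summits (scaled density 4.41), against 6 (1.65) in the 100 kb above its start. With MICAL1-M1 the same flanks held 21 (3.95) and 8 (1.51), with TBC1D3 15 (2.01) and 9 (1.21), and at DIV7 11 (1.37) and 5 (0.623).

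**Figure D4:**
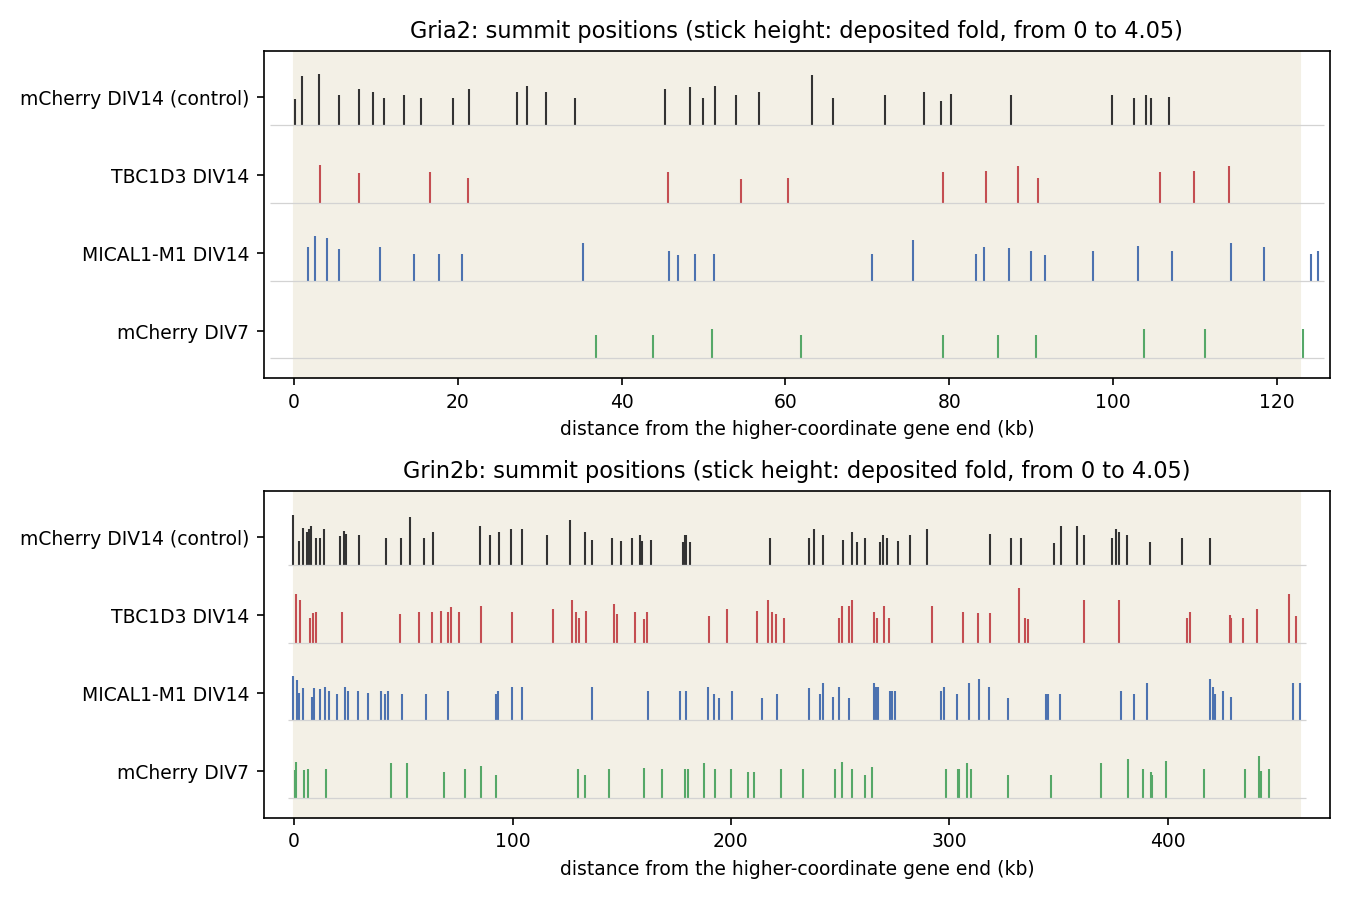
Summit positions along Gria2 and Grin2b (shaded, 123 kb and 460 kb) by library; the horizontal axis is the distance from the higher-coordinate gene end in kb and stick height is the deposited fold. Control summits fill Gria2 (33) more closely than those of DIV7 (9), and both the control (13) and MICAL1-M1 (16) are dense in the segment of Grin2b nearest that end.

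In Grin2b, the segment at the higher-coordinate end (1 of 10) held 13 of 64 control summits and 16 of 64 with MICAL1-M1, against 6 of 57 with TBC1D3 and 6 of 48 at DIV7. In the other segments the control counts ran from 1 to 10. Control peaks covered 7.20% of Grin2b, MICAL1-M1 peaks 7.21%, TBC1D3 peaks 4.85% and DIV7 peaks 4.13%. Inside the gene body 2 control peaks reached a q of at most 0.05, from 136120431 to 136120863 (3.51-fold, 15 fragments) and from 136046762 to 136047398 (3.29-fold, 14 fragments). Of the 33 control peaks in Gria2, 8 (24.2%, 11.1 to 42.3) were overlapped by at least 1 bp by a MICAL1-M1 peak, 4 (12.1%, 3.40 to 28.2) by a TBC1D3 peak and 2 (6.06%, 0.743 to 20.2) by a DIV7 peak. Of the 64 in Grin2b the counts were 17 (26.6%, 16.3 to 39.1), 10 (15.6%, 7.76 to 26.9) and 8 (12.5%, 5.55 to 23.2). For control peaks in the bodies of all long protein-coding genes the shares were 22.1%, 12.3% and 11.4%, inside these intervals.

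The other 5 long receptor genes ran from 0.203 to 1.94 times the mean density of a list. The interval lay above 1 for Gria1 with TBC1D3 and MICAL1-M1, Gria4 with MICAL1-M1 and Grin2a with MICAL1-M1 and at DIV7, and below 1 for Gria3 in all 4 lists. Gria1, whose product is the AMPA subunit best known for activity-dependent insertion at synapses, held 16 control summits (1.38, 0.790 to 2.25), 40 with TBC1D3 (1.68, 1.20 to 2.29), 26 with MICAL1-M1 (1.54, 1.004 to 2.25) and 36 at DIV7 (1.41, 0.986 to 1.95). None of its 3 ratios to the control had an interval that left out 1. Grin2a, the late GluN2 subunit gene, held 21 (1.35, 0.836 to 2.06), 37 (1.16, 0.815 to 1.60), 44 (1.94, 1.41 to 2.60) and 47 (1.37, 1.01 to 1.82) in the same order. Its ratios to the control likewise had intervals that include 1, while MICAL1-M1 stood above TBC1D3 by 1.67 times (1.06 to 2.66).

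Gria4 held 11 control summits (0.801, 0.3997 to 1.43), 22 with TBC1D3 (0.779, 0.488 to 1.18), 33 with MICAL1-M1 (1.64, 1.13 to 2.31) and 33 at DIV7 (1.09, 0.748 to 1.53). MICAL1-M1 was its highest library, where the interval lay above 1, and it stood above TBC1D3 by 2.11 times (1.19 to 3.80). The ratio of MICAL1-M1 to DIV7 at Gria4 was 1.51, with an interval (0.904 to 2.53) that includes 1. Grin3a held 5 control summits (0.747, 0.242 to 1.74), 20 with TBC1D3 (1.45, 0.887 to 2.24), 9 with MICAL1-M1 (0.919, 0.420 to 1.74) and 23 at DIV7 (1.55, 0.985 to 2.33). At Grin3a, unlike Grin2b, the DIV7 value was above that of the control, with a ratio of 2.08 whose interval (0.774 to 7.01) includes 1.

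Gria3, the only one of the 10 on chromosome X, held 3 control summits (0.297, 0.0613 to 0.869), 8 with TBC1D3 (0.386, 0.167 to 0.760), 3 with MICAL1-M1 (0.203, 0.0419 to 0.594) and 12 at DIV7 (0.538, 0.278 to 0.940). Peaks were few on the whole chromosome, which held 0.418% of all control peaks, 1.79% for TBC1D3, 0.924% for MICAL1-M1 and 2.77% for DIV7. Scaled to the density of chromosome X itself, Gria3 stood at 4.49 in the control, 1.36 with TBC1D3, 1.39 with MICAL1-M1 and 1.23 at DIV7. The control value rests on 3 summits. For none of the other 9 genes did scaling to the gene's own chromosome move a value beyond its interval.

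The 3 short genes held few summits. Grin1 (28.0 kb) held 2 in each library, Grin2d (39.3 kb) 0 in the control, 2 with TBC1D3, 1 with MICAL1-M1 and 4 at DIV7, and Grin2c (18.1 kb) 1 with TBC1D3 and 0 in the others. The control's mean density predicts 1.02, 1.43 and 0.658 summits for Grin1, Grin2d and Grin2c. A count of 0 in the control, taken to allow 3 summits, corresponds to a scaled density of 2.10 at Grin2d and 4.56 at Grin2c, and the upper ends of the exact intervals are 2.58 and 5.60; a lower density than that of other genes was not detectable there.

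Against the control, the scaled density of Gria2 was 0.206 times as high with TBC1D3 (0.102 to 0.396), 0.518 with MICAL1-M1 (0.295 to 0.898) and 0.123 at DIV7 (0.0519 to 0.264). That of Grin2b was 0.433 with TBC1D3 (0.298 to 0.629), 0.684 with MICAL1-M1 (0.476 to 0.983) and 0.339 at DIV7 (0.228 to 0.501). These 6 intervals lay below 1, that of Grin2b with MICAL1-M1 only narrowly. Of the other ratios, that of Gria4 with MICAL1-M1, 2.05 (1.01 to 4.50), had an interval that left out 1, and those of Gria1, Gria3, Grin1, Grin2a and Grin3a and the other 2 of Gria4 included it. Grin2c and Grin2d have no ratio, since the control held 0 summits there. The 3 comparisons share the control library. The intervals hold no spread between cultures.

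A ratio of at most 0.5 was common among long genes. It was found with TBC1D3 in 23.6%, with MICAL1-M1 in 5.43% and at DIV7 in 24.1% of the 2304 long genes that had a control summit, and a ratio of at least 2 in 13.6%, 9.9% and 13.4%. Among the 255 long genes with a scaled density of 3 or more in the control, a set chosen by the control's own values as Gria2 and Grin2b were, a ratio of at most 0.5 was found in 80.4% with TBC1D3, 5.88% with MICAL1-M1 and 83.9% at DIV7. The median ratio of these 255 genes was 0.389, 0.718 and 0.362. Grin2b lay close to these medians. Gria2 lay lower: 16 of the 255 had a smaller ratio than Gria2 with TBC1D3, 16 with MICAL1-M1 and 2 at DIV7. The depth of the lists moved with these ratios, since the control and MICAL1-M1 lists have the higher backgrounds (3.56 and 2.61 fragments); its part in them was not tested.

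**Figure D5:**
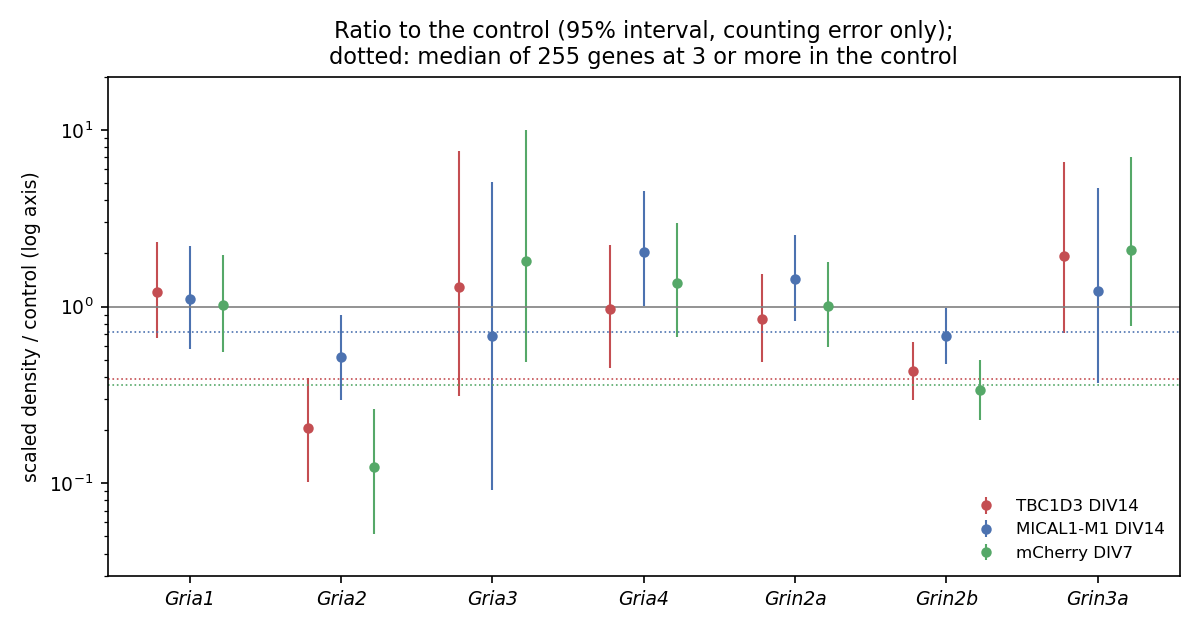
Scaled density of the 7 long receptor genes relative to the control (vertical log axis) with TBC1D3, with MICAL1-M1 and at DIV7; bars are exact 95% intervals for counting error, and dotted lines mark the median ratio of the 255 long genes at 3 or more in the control (0.389, 0.718 and 0.362). Gria2 lies below the dotted line of its colour in each comparison (0.206, 0.518 and 0.123), and Grin2b lies near it.

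With each list limited to its 96647 peaks of lowest p, the size of the control's list, Gria2 stood at 7.40 in the control, 1.53 with TBC1D3, 4.43 with MICAL1-M1 and 0.230 at DIV7, and Grin2b at 3.83, 1.72, 2.95 and 1.21. Peaks tied in p at that limit (57591 with TBC1D3, 31293 with MICAL1-M1 and 66645 at DIV7) shared the remaining places with equal weight. The order of the libraries at both genes was that of the full lists. When densities were scaled to the spans of all protein-coding genes in place of the whole genome, Gria2 stood at 5.29, 1.46, 3.02 and 0.909 and Grin2b at 2.74, 1.59, 2.06 and 1.29. With peaks of a p of at most 0.01, Grin2b stood at 3.48 in the control and 3.15 with MICAL1-M1, closer together than in the full lists. No interval of a single-gene ratio was computed under these alternatives.

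Summed over the 10 genes, the bodies held 155 control summits where 81.9 were expected (1.89, 1.61 to 2.21), 203 with TBC1D3 (1.20, 1.04 to 1.38), 207 with MICAL1-M1 (1.73, 1.501 to 1.98) and 214 at DIV7 (1.18, 1.03 to 1.35). The median over the 10 genes was 1.08, 1.06, 1.44 and 1.18. Over the 7 of at least 100 kb it was 1.35, 1.45, 1.64 and 1.299, and the median of all protein-coding genes of that length was 1.27, 1.10, 1.32 and 1.04. Gria2 and Grin2b supplied 97 of the 155 control summits. Without this pair, the other 8 genes held 58 in the control (0.955, 0.725 to 1.23), 132 with TBC1D3 (1.06, 0.884 to 1.25), 118 with MICAL1-M1 (1.33, 1.10 to 1.59) and 157 at DIV7 (1.17, 0.994 to 1.37). The ratio of the 10 genes to the control was 0.637 with TBC1D3 (0.514 to 0.790), 0.913 with MICAL1-M1 (0.738 to 1.13) and 0.625 at DIV7 (0.506 to 0.773); for the other 8 genes it was 1.11 (0.807 to 1.53), 1.39 (1.01 to 1.94) and 1.22 (0.901 to 1.69). The lower sum with TBC1D3 and at DIV7 thus rested on Gria2 and Grin2b. This pair was picked by its high control values, which by itself tends to raise the ratios of the other 8 genes. Scaled to protein-coding gene spans, the ratio of the 10 genes was 0.854 (0.689 to 1.06) with TBC1D3 and 0.870 (0.704 to 1.08) at DIV7, intervals that include 1.

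Summed by receptor, the AMPA genes stood at 1.58 in the control (1.21 to 2.02), 1.02 with TBC1D3 (0.817 to 1.27), 1.49 with MICAL1-M1 (1.20 to 1.84) and 1.02 at DIV7 (0.822 to 1.26). The NMDA genes stood at 2.19 (1.76 to 2.68), 1.38 (1.14 to 1.65), 1.95 (1.62 to 2.33) and 1.33 (1.11 to 1.59). The NMDA sum was the higher in each library, by 1.38 times in the control (0.993 to 1.94), 1.34 with TBC1D3 (1.01 to 1.80), 1.31 with MICAL1-M1 (0.983 to 1.74) and 1.31 at DIV7 (0.987 to 1.73), so the interval left out 1 with TBC1D3 and included it in the other libraries. Without Gria2 and Grin2b all 4 intervals included 1. None of the NMDA genes is X-linked, while the AMPA sum holds the X-linked gene Gria3. Scaled densities of Gria3 were 0.297 in the control, 0.386 with TBC1D3, 0.203 with MICAL1-M1 and 0.538 at DIV7. Gria3 supplied 3 of 63 AMPA summits in the control, 8 of 84 with TBC1D3, 3 of 87 with MICAL1-M1 and 12 of 90 at DIV7. In the same order it supplied 10.1 of 39.9, 20.7 of 82.0, 14.8 of 58.3 and 22.3 of 88.1 expected summits. It thus lowers the AMPA sums and raises the NMDA to AMPA ratios. The ratios without Gria3 were not tested.

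Other glutamate receptor genes and genes of receptor partners were counted in the same way. Kainate and delta subunit genes had a gene-end summit in 5, 5, 5 and 4 of 7 cases (control, TBC1D3, MICAL1-M1 and DIV7). Metabotropic receptor genes had one in 7, 6, 7 and 4 of 8. Among the partners, AMPA receptor auxiliary subunit genes had one in 5, 4, 6 and 8 of 12. Anchoring and trafficking genes had one in 11, 10, 10 and 5 of 15. The shares of all protein-coding genes are 42.3%, 33.4%, 38.7% and 33.2%. Grin3b had none in any list. Their summed scaled densities in the control were 1.23 for kainate and delta genes (1.05 to 1.42), 1.82 for metabotropic receptor genes (1.58 to 2.09), 1.59 for auxiliary subunit genes (1.26 to 1.99) and 2.26 for anchoring and trafficking genes (2.00 to 2.54). Their ratios to the control with TBC1D3 were 0.891, 0.625, 0.878 and 0.493, and at DIV7 0.849, 0.617, 0.735 and 0.479. A gene-end peak with a q of at most 0.05 was found in the control at 8.47% of all protein-coding genes. Of the 43 genes of these lists, 2 had such a peak. They were Grm7, a presynaptic metabotropic receptor gene (4.16-fold, chromosome 6 from 110644909 to 110646367), and Grid1, which encodes the delta receptor GluD1 (3.55-fold, chromosome 14 from 34819911 to 34820759). Their scaled densities were 2.24, 1.13, 1.90 and 1.20 for Grm7 and 2.09, 1.54, 2.12 and 1.37 for Grid1.

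The genes most like the long receptor genes in their 4 scaled densities were Agap1, Tmem163 and Unc5d, by the Euclidean distance of log2 values (with 0.5 added to observed and expected counts) from the median of the 7 long receptor genes (0.09997, 0.144 and 0.146). Agap1 stood at 1.31 in the control, 1.40 with TBC1D3, 1.58 with MICAL1-M1 and 1.24 at DIV7. The likeness is over 4 libraries of unequal depth.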

How the data were processed

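Each of the 4 deposited peak lists was made by the authors from 1 ChIP library, with input DNA as background per the labels' protocols. The submitters' processing notes name ChIPseeker 1.26.2, MACS 1.4.2, SAMtools 1.9 and Bowtie 1.3.0, while what each did, with which settings and on which build, is not given in the sources used here; positions were read as GRCm38. The deposited fold is the ratio of pileup to local background at the summit, with 1 added to each. The deposited -log10 columns hold p and q, and the deposited score repeats the p column, as 10 times its value without decimals. Every list reaches a p of about 0.05 without correction. The input sample was not analysed here.

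Only peaks on assembled chromosomes were used, and positions are 1-based. The genome length for expected counts (2662 Mb) is the range that peaks cover. Pileup and local background of a peak were recovered as the whole pileup whose Poisson tail gives the deposited fold and p within 0.001 in log10 p, which held for at least 99.94% of 5000 peaks sampled per list. Intervals are exact Poisson intervals for counts, exact binomial ones for shares and exact conditional binomial ones for ratios of counts. The counting was tested on simulated data. Python 3.11.15, numpy 2.4.6, scipy 1.17.1 and pandas 2.3.3 were used. The genes, the lists of related genes and the markers were chosen with earlier results of these data known. Besides all 10 receptor genes, the text names genes of the related lists with a gene-end peak at a q of at most 0.05 (at most 6, by fold) and the 3 long genes nearest to the median receptor profile; genes named as neighbours or by rank were chosen after their values were seen. Alternatives were a 3 kb window, peaks that touch the window anywhere, peaks with a p of at most 0.01 or a q of at most 0.05, lists of equal size (tied peaks weighted equally), densities scaled to the gene's chromosome or to protein-coding gene spans, gene bodies without 3 kb at each end, and each gene left out.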

Additional observations from a re-analysis of the deposited data

How the results depend on the processing

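No paired analysis was possible because each group has 1 library. Of the counts of occupied genes among the 10, a p of at most 0.01 left 2 at DIV7, against 6. Lists of equal size left 2 there without the peaks tied in p at the limit and 5 with them, a choice made after seeing the data. At a q of at most 0.05 the control had 2, against 7, and TBC1D3, MICAL1-M1 and DIV7 had 0. Under a 3 kb window, or with peaks that touch the window anywhere, every count stayed within 1.5 times. The summed density of the 10 genes scaled to protein-coding gene spans was 1.35 in the control and 1.36 with MICAL1-M1, and the ratio to the control was then 0.854 with TBC1D3 and 0.870 at DIV7. At a q of at most 0.05 the control value was 1.46 on 5 peaks, and the other lists and their ratios were 0, from too few peaks to read. Leaving out each gene in turn gave summed densities of 1.40 to 2.12 in the control, 1.09 to 1.32 with TBC1D3, 1.4998 to 1.94 with MICAL1-M1 and 1.14 to 1.27 at DIV7, the lowest control value being that without Grin2b; the ratios ran from 0.570 to 0.780, 0.826 to 1.07 and 0.564 to 0.825. All other sums stayed inside their main intervals. Of the single-gene densities, 50 of 240 under an alternative lay outside their interval, 36 of them at a q of at most 0.05. Depth limits what single peaks of the TBC1D3 and DIV7 lists show, and few MICAL1-M1 peaks (0.463%) reached a q of at most 0.05 either.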
